A study of Mus musculus with 9 samples.

Results

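The methionine cycle was described here in newborn mouse lenses through 8 genes, taken by their symbols from the 47729 genes of the RNA-Seq tables: *Mat2a*, *Mat2b*, *Ahcy*, *Ahcyl1*, *Ahcyl2*, *Mtr*, *Mtrr* and *Cbs*. All 8 were among the 15557 genes that passed the filter on low counts. The genes were listed by symbol, and *Ahcy* was selected on its expected counts, which differ between the *Le-Cre* lenses and the other lines in some fits, so its values in the *Le-Cre* comparisons are given as a description, without a test. The lenses came from non-transgenic *FVB/N* mice, from hemizygous *P0-3.9GFPCre* mice and from hemizygous *Le-Cre* mice, with all 3 lines on the *FVB/N* strain and all lenses taken on the day of birth. Both transgenes drive CRE from a *Pax6* P0 promoter fragment and also make GFP, which *P0-3.9GFPCre* mice carry as a fusion with CRE, so neither line separates CRE from GFP or from the position of its transgene. Each line had 3 pools of 6 whole lenses from 3 mice. In such bulk RNA, fewer cells of a type cannot be told apart from less RNA per cell.

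The methionine cycle supplies cells with S-adenosylmethionine (SAM), the methyl donor for DNA, RNA, histones and small molecules. MAT2A joins methionine and ATP into SAM, and each methyl transfer leaves S-adenosylhomocysteine, a product that inhibits methyltransferases until AHCY splits it into adenosine and homocysteine. Homocysteine is then either methylated back to methionine by MTR, with a folate as the methyl source and vitamin B12 as the cofactor, or passed by CBS toward cysteine and glutathione, the main antioxidant of the lens.

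*Ahcy* lies on the minus strand of chromosome 2 (chr2:155059310-155074497, GRCm38), and its coding sequence of 1296 bases recurs almost unaltered elsewhere in the genome. *Gm4737* (chr16:46152985-46155077, minus strand), a single-exon gene annotated as protein coding, differed from *Ahcy* at 4 of the 1296 coding bases. *Gm9826* (chr1:7177739-7179037, plus strand), annotated as a processed pseudogene, differed at 11. With positions counted from 1 at the A of the *Ahcy* start codon, and the *Ahcy* base written first, the changes in *Gm4737* were C459T, G474A, C1050T and C1068T. The last 2 of these also occurred in *Gm9826*. *Gm5638*, a processed pseudogene on the X chromosome, was less alike (95.1% of aligned coding bases) and was listed at 0 counts in every pool.

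How little separates the genes is seen in a stretch of exon 5 (coding bases 446 to 535 of *Ahcy*), shown because it holds 2 of the 4 coding differences from *Gm4737*. Capitals mark the bases that differ between *Ahcy* and *Gm4737*, and *Gm9826* was identical to *Ahcy* over all 90 bases. The stretch lies at chr2:155064837-155064926 (minus strand) in *Ahcy*, at chr16:46154478-46154567 (minus strand) in *Gm4737* and at chr1:7178184-7178273 (plus strand) in *Gm9826*.
Ahcy: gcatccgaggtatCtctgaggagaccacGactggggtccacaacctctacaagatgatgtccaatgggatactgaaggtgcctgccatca
Gm4737: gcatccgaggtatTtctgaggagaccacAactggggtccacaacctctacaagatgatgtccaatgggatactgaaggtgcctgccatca
Gm9826: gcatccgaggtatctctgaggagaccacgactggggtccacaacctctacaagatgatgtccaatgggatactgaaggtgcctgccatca

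A stretch of exon 10 (coding bases 1168 to 1257) shows the reverse, with *Gm4737* identical to *Ahcy* over 90 bases and 3 bases of *Gm9826* different, again in capitals. It lies at chr2:155060491-155060580 in *Ahcy*, at chr16:46153756-46153845 in *Gm4737* and at chr1:7178906-7178995 in *Gm9826*.
Ahcy: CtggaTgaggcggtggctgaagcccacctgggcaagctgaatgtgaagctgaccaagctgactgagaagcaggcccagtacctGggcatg
Gm4737: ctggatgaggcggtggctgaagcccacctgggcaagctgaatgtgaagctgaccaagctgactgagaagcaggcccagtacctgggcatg
Gm9826: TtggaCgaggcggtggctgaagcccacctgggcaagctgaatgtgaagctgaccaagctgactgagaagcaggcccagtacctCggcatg

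The libraries were sequenced as single-end reads of about 51 bases, so each start position along the 2543-base *Ahcy* transcript was checked for a copy of its 51 bases in another gene. Of the 2493 start positions, 73.9% had their sequence in *Gm4737* and 33.7% in *Gm9826*. Within the coding part only 62 of 1246 start positions (4.98%) were in no copy, against 43.4% of those after the stop codon. A read without sequencing error from most of the coding part therefore matches more than 1 gene, and RSEM, the program the authors used for counting, divides such a read among the genes by an estimate. No other member was affected to this extent. *Ahcyl1*, *Mat2b*, *Mtr* and *Mtrr* shared no 51-base sequence with another gene, *Cbs* shared 1.13% of its sequences, *Ahcyl2* 1.28%, all on the opposite strand of *4930528J11Rik*, and *Mat2a* 14.1%.

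**Figure D1:**
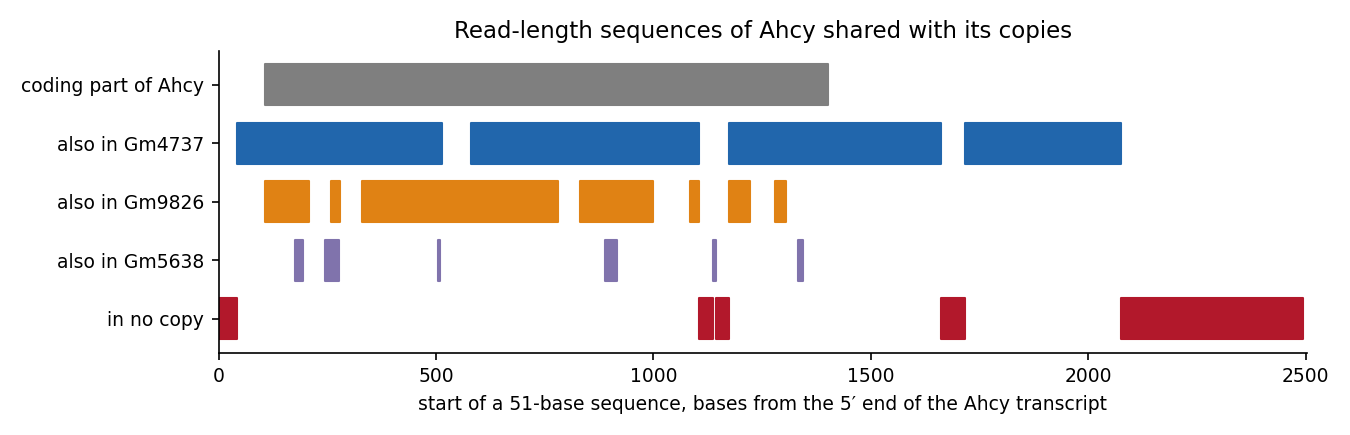
Start positions of 51-base sequences along the *Ahcy* transcript (x axis, bases from the 5′ end), with bars where the same sequence occurs in *Gm4737*, *Gm9826* or *Gm5638*, or in no copy, and a grey bar for the coding part. The bars for *Gm4737* cover 73.9% of the positions, and those in no copy lie mostly beyond the coding part.

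Unless counts or TPM are named, levels are given below as normalised read counts, expected counts scaled to a common library size with TMM factors (CPM). For *Ahcy* these were 7.68, 12.5 and 10.4 CPM in the *FVB/N* pools, 17.4, 15.7 and 12.0 CPM in the *P0-3.9GFPCre* pools, and 4.305, 5.81 and 6.83 CPM in the *Le-Cre* pools, in the order of replicates 1 to 3. Every *Le-Cre* pool was below every pool of the other lines, while the *FVB/N* and *P0-3.9GFPCre* pools overlapped. The means were 10.2 ± 2.40, 15.0 ± 2.79 and 5.65 ± 1.27 CPM (SD, n = 3), and the log2 fold change was -0.85 (SE 0.22) for *Le-Cre* against *FVB/N* and -1.42 (SE 0.22) for *Le-Cre* against *P0-3.9GFPCre*. These 2 comparisons share the *Le-Cre* pools and are not independent of each other.

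Between the transgenic lines the counts of *Gm4737* ran the other way. They were 27.6, 16.1 and 27.0 CPM in *FVB/N*, 14.6, 13.7 and 22.5 CPM in *P0-3.9GFPCre*, and 27.3, 27.7 and 26.5 CPM in *Le-Cre*. The *Le-Cre* pools were all above the *P0-3.9GFPCre* pools and lay within the range of *FVB/N* apart from replicate 2, which was slightly above it. *Gm9826* received 3.10, 6.67 and 0 CPM in *FVB/N*, 5.63, 11.2 and 12.5 CPM in *P0-3.9GFPCre*, and 0.178, 4.95 and 0.588 CPM in *Le-Cre*. Pools of 1 line thus ranged from no read to 154.85 expected counts for this pseudogene in *FVB/N*, and from 5.06 to 127.2 in *Le-Cre*.

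When the reads of *Ahcy* and its copies were added together, the *Le-Cre* pools no longer all lay below the other pools. The sum was 38.4, 35.2 and 37.3 CPM in *FVB/N*, 37.7, 40.6 and 46.95 CPM in *P0-3.9GFPCre*, and 31.8, 38.5 and 33.9 CPM in *Le-Cre*, so that the pools of every pair of lines overlapped. Its log2 fold change was -0.09 for *Le-Cre* against *FVB/N* and -0.27 for *Le-Cre* against *P0-3.9GFPCre*, given like those of *Ahcy* without a test. The expected counts of the single genes had decimals, but their sum was a whole number within 0.01 in every pool (749 to 1046 reads), so a whole number of reads was divided among these genes. *Ahcy* received 20.0, 35.4 and 27.7% of the sum in *FVB/N*, 46.2, 38.6 and 25.6% in *P0-3.9GFPCre*, and 13.5, 15.1 and 20.2% in *Le-Cre*. The share was lower in every *Le-Cre* pool than in any *P0-3.9GFPCre* pool, and it overlapped slightly between *Le-Cre* and *FVB/N*. Because *Ahcy* was only 13.5 to 46.2% of the sum, a difference in *Ahcy* alone would give the sum a smaller log2 fold change. Overlapping sums therefore do not show that *Ahcy* itself was level between lines. The mean sum was lowest for *Le-Cre* at 34.7 CPM, against means of 37.0 for *FVB/N* and 41.8 for *P0-3.9GFPCre*.

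**Figure D2:**
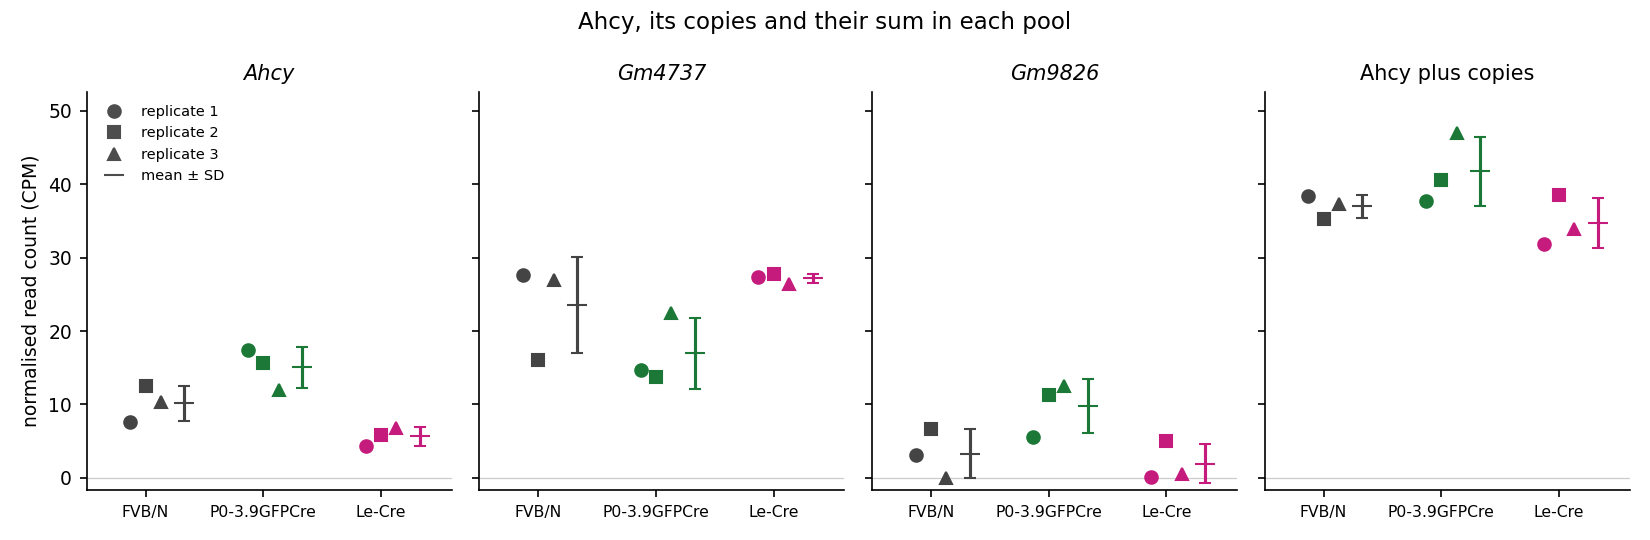
Normalised read count (y axis, CPM) of *Ahcy*, *Gm4737*, *Gm9826* and the sum of *Ahcy* and its copies in each pool of the 3 lines (x axis). Symbols mark the replicate number and bars the mean ± SD (n = 3). The 3 *Le-Cre* pools sit lowest for *Ahcy* (4.305 to 6.83 CPM), whereas the sums of all lines overlap between 31.8 and 46.95 CPM.

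The tables also hold RSEM's own error for this division. The posterior SD of the *Ahcy* count was between 24.13 and 42.36 reads, which was 9.99% to 26.1% of the count, and its highest share was in *Le-Cre* replicate 2 (149.41 ± 39.06 expected counts). For the other 7 members it did not exceed 1.85 reads. The edgeR test takes the counts as known and does not include this error. The mice were *FVB/N* and the reads were mapped to GRCm38, the genome of C57BL/6J, and bases in which these strains differ were not analysed here.

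On the length-scaled TPM values *Ahcy* also overlapped between lines. It was 3.25, 5.93 and 4.20 TPM in *FVB/N*, 8.44, 6.85 and 5.63 TPM in *P0-3.9GFPCre*, and 3.69, 2.65 and 3.81 TPM in *Le-Cre*. The *Le-Cre* pools remained below the *P0-3.9GFPCre* pools but not below *FVB/N*. RSEM assigned *Ahcy* an average transcript length of 1285.5 bases in *Le-Cre* replicate 1 and of 2543 bases in 4 of the 9 pools, and this length enters TPM. The log2(TPM + 1) difference was -0.30 for *Le-Cre* against *FVB/N* and -0.86 for *Le-Cre* against *P0-3.9GFPCre*, smaller than on counts. At TPM values this low the added 1 itself reduces such a difference.

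*P0-3.9GFPCre* against *FVB/N* was not itself the comparison used to choose *Ahcy*, but the pools of both lines entered that choice. This comparison gave a log2 fold change of 0.57 (SE 0.21, adjusted p = 0.656 by the quasi-likelihood test of edgeR, Benjamini-Hochberg adjusted), with overlapping pools. The sum of *Ahcy* and its copies gave 0.18 (SE 0.10, adjusted p = 0.782, edgeR). In the same comparison *Gm4737* had -0.48 (SE 0.21, adjusted p = 0.722, edgeR) and *Gm9826* 1.59 (SE 1.01, adjusted p = 0.81, edgeR). None of these passed the cutoff of a 1.5-fold change and an adjusted p of 0.05, which was used throughout.

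The members spanned a wide range of levels, compared between genes on TPM only. *Mat2a*, the catalytic subunit of the SAM synthetase outside the liver, was the highest at 60.25 to 77.0 TPM over the 9 pools. Its *FVB/N* mean of 64.79 TPM was above that of 93.8% of the tested genes. *Ahcyl1*, an AHCY-like protein known as a binding partner of the IP3 receptor rather than as an enzyme of the cycle, followed at 22.3 to 33.1 TPM. Neither range overlapped that of any other member. *Ahcyl2*, the close relative of *Ahcyl1*, reached 8.32 to 18.15 TPM, *Mtrr* 7.56 to 10.7 TPM and *Mat2b* 7.09 to 11.2 TPM, and these neighbours in the order overlapped one another. *Ahcy* itself, at 2.65 to 8.44 TPM, overlapped *Mat2b* above it and *Mtr* below it (2.7 to 3.5 TPM). The sum of the TPM of *Ahcy* and its copies was 17.65 to 28.4. *Cbs* was the lowest member at 0.14 to 1.41 TPM.

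Of the SAM synthetase genes, *Mat2a* (chr6:72432799-72439558, minus strand) was the least variable member. It had 147.2, 147.4 and 148.1 CPM in *FVB/N*, 159.3, 174.1 and 158.1 CPM in *P0-3.9GFPCre*, and 154.8, 162.9 and 153.6 CPM in *Le-Cre*. Every transgenic pool was above every *FVB/N* pool, but the differences were small and did not pass the test. On TPM *Le-Cre* (63.61 to 77.0) overlapped *FVB/N* (60.25 to 69.16). The log2 fold change was 0.15 (SE 0.06, adjusted p = 0.662, edgeR) for *P0-3.9GFPCre* and 0.09 (SE 0.06, adjusted p = 0.765, edgeR) for *Le-Cre*, both against the same *FVB/N* pools. Of the 51-base sequences of *Mat2a*, 9.61% also lie in *Particl*, a transcript of the opposite strand. The use of strand in counting was not given in the sources used here, so reads of this overlap cannot be told apart. The processed pseudogene *Gm9523*, which shares 4.45% of the sequences, received at most 5.62 counts.

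*Mat2b* (chr11:40679314-40695203, minus strand) encodes the regulatory subunit that binds MAT2A. It had 15.2, 14.2 and 19.3 CPM in *FVB/N*, 12.7, 13.85 and 12.5 CPM in *P0-3.9GFPCre*, and 16.65, 14.8 and 13.2 CPM in *Le-Cre*. The *P0-3.9GFPCre* pools were all below *FVB/N*, with a log2 fold change of -0.32 (SE 0.13, adjusted p = 0.67, edgeR), and the *Le-Cre* pools overlapped both other lines. Without *FVB/N* replicate 3, the highest pool, the value was -0.175.

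The AHCY-like genes have sequences of their own, and their counts do not depend on the *Ahcy* copies. *Ahcyl1* (chr3:107663118-107696560, minus strand) had 72.6, 67.4 and 60.0 CPM in *FVB/N*, 67.3, 73.5 and 73.2 CPM in *P0-3.9GFPCre*, and 63.6, 72.5 and 64.6 CPM in *Le-Cre*. All lines overlapped, and the log2 fold change for *Le-Cre* against *FVB/N* was 0.01 with a 95% interval from -0.18 to 0.19.

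*Ahcyl2* (chr6:29768011-29912310, plus strand) had the smallest adjusted p of the 7 members tested in each *Le-Cre* comparison. It had 29.1, 32.2 and 31.5 CPM in *FVB/N*, 30.3, 35.2 and 29.8 CPM in *P0-3.9GFPCre*, and 24.2, 26.45 and 26.3 CPM in *Le-Cre*. The *Le-Cre* pools were below every other pool, by a log2 fold change of -0.27 (SE 0.08, adjusted p = 0.433, edgeR) against *FVB/N* and of -0.31 (SE 0.08, adjusted p = 0.406, edgeR) against *P0-3.9GFPCre*. Neither passed the test over all genes, and both were under 1.5-fold. With the level of Y-linked genes as a covariate the first value was -0.17, and on log2(TPM + 1) the values were -0.51 against *FVB/N* and -0.16 against *P0-3.9GFPCre*. On TPM the *Le-Cre* pools (8.32 to 10.39) stayed below *FVB/N* (11.27 to 18.15) but overlapped *P0-3.9GFPCre* (9.33 to 11.42).

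The summed level of 6 lens epithelium markers was lower in *Le-Cre*, at 530.6 to 573.1 CPM, than in *FVB/N*, at 628.6 to 647 CPM, with 0 of the 6 genes past the cutoff. The *P0-3.9GFPCre* pools lay between 543.6 and 632.5 CPM. The largest part of the *Le-Cre* difference was *Pdgfra*, with means of 127.2 CPM in *Le-Cre* and 168.2 CPM in *FVB/N*. *Pax6* was nearly level at 129.9 and 131.2 CPM, and the pools of *Pax6*, *Foxe3* and *Gja1* overlapped between these lines. The *Le-Cre* pools of *Pdgfra*, *Cdh1* (means of 132.1 and 145.5 CPM) and *Npnt* (73.33 and 81.55 CPM) were all below *FVB/N*. The *P0-3.9GFPCre* pools of *Pdgfra*, *Cdh1* and *Npnt* were also all below *FVB/N*. The 4 Y-linked genes summed to 126 to 194 CPM for *FVB/N*, 1.66 to 135 CPM for *P0-3.9GFPCre* and 0.633 to 71.9 CPM for *Le-Cre*, so the pools differed in Y-linked RNA within and between lines. The part of either in the *Ahcy* and *Ahcyl2* values was not tested, beyond the covariate fit, in which *Ahcy* had -0.63 for *Le-Cre* against *FVB/N* and -1.31 against *P0-3.9GFPCre*.

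Remethylation of homocysteine was represented by *Mtr* (chr13:12182712-12258113, minus strand), methionine synthase, and *Mtrr* (chr13:68560780-68582149, minus strand), the reductase that restores its B12 cofactor. *Mtr* had 13.9, 13.85 and 11.9 CPM in *FVB/N*, 12.6, 11.9 and 11.1 CPM in *P0-3.9GFPCre*, and 11.5, 13.3 and 15.1 CPM in *Le-Cre*. *Mtrr* had 26.1, 28.9 and 31.1 CPM in *FVB/N*, 27.2, 29.1 and 30.4 CPM in *P0-3.9GFPCre*, and 31.0, 34.3 and 31.2 CPM in *Le-Cre*. For *Mtr* all lines overlapped. The *Mtrr* pools of *Le-Cre* were all above *P0-3.9GFPCre* and overlapped *FVB/N*, with log2 fold changes of 0.16 (SE 0.08, adjusted p = 0.702, edgeR) and 0.17 (SE 0.08, adjusted p = 0.692, edgeR). On TPM the reverse held, as the *Le-Cre* pools (8.79 to 10.69) overlapped *P0-3.9GFPCre* (8.43 to 9.02) and were above *FVB/N* (7.56 to 8.65).

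*Cbs* (chr17:31608894-31637238, minus strand), the enzyme that commits homocysteine to cysteine, was counted least. It had 27, 19 and 26 counts in *FVB/N*, 26, 15 and 29 counts in *P0-3.9GFPCre*, and 37, 24 and 7 counts in *Le-Cre*. After normalization the means were 0.968 ± 0.132, 1.033 ± 0.289 and 0.856 ± 0.505 CPM (SD, n = 3) in that order of lines. *Le-Cre* replicate 3 stood lowest, with an exact 95% Poisson interval of 2.81 to 14.4 counts against 26.1 to 51 for *Le-Cre* replicate 1, so the pools of 1 line differed by more than counting error. These intervals cover counting error only. The log2 fold change of *Le-Cre* against *FVB/N* was -0.16 with a 95% interval from -1.22 to 0.90, which holds both a fall of 2-fold and a rise of 1.5-fold, and without *Le-Cre* replicate 3 it was 0.22.

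**Figure D3:**
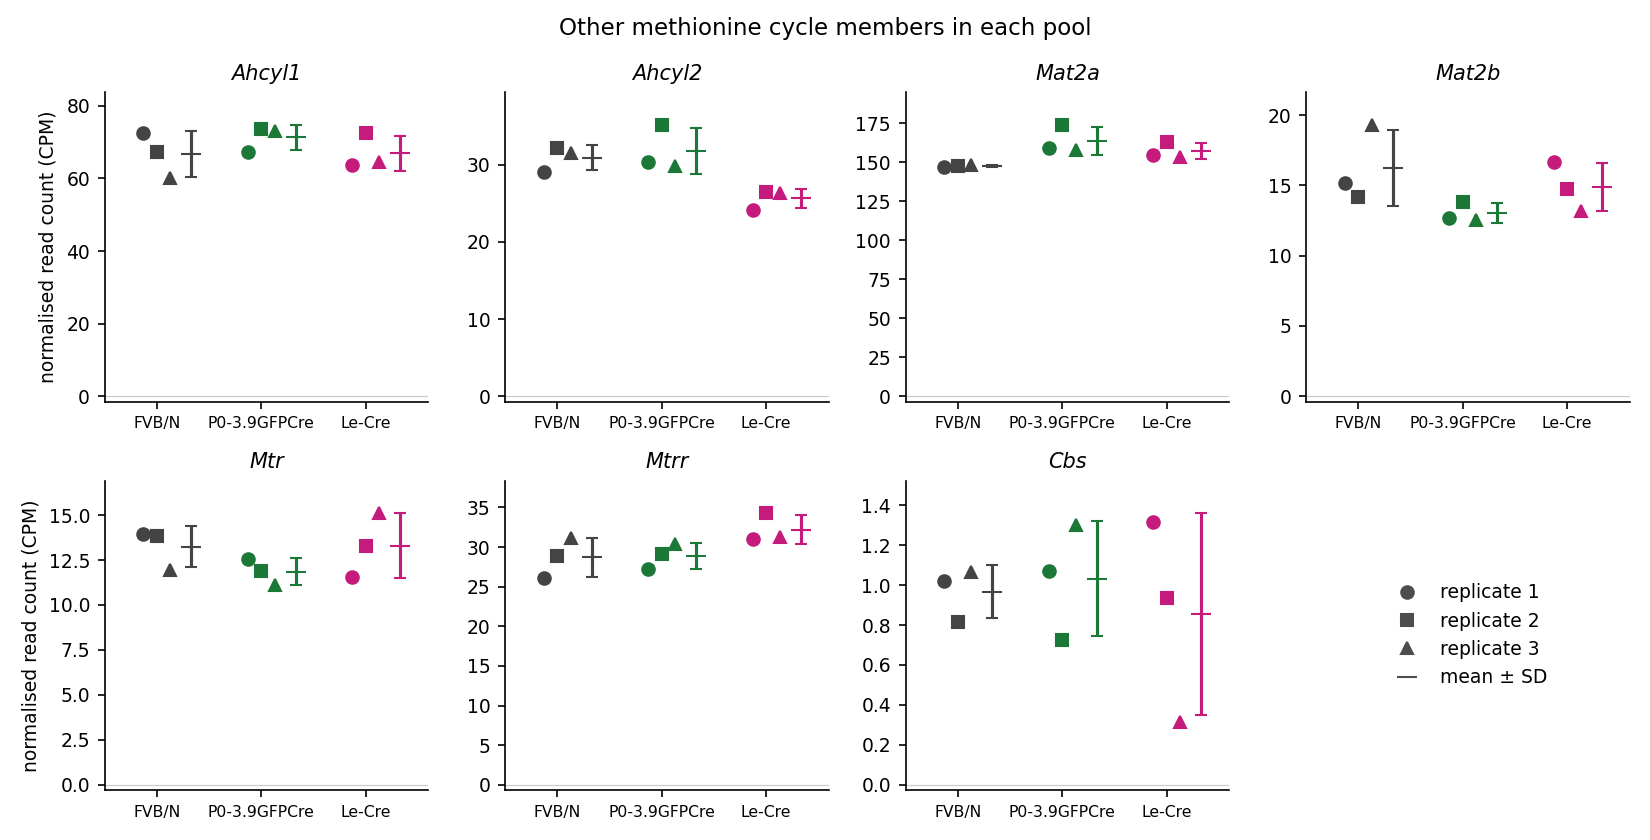
Normalised read count (y axis, CPM, from 0) of the 7 members other than *Ahcy* in each pool of the 3 lines (x axis). Symbols mark the replicate number and bars the mean ± SD (n = 3). The *Ahcyl2* pools of *Le-Cre* (24.2 to 26.45 CPM) lie below the other lines, and the *Mat2a* pools of *FVB/N* (147.2 to 148.1 CPM) lie below both transgenic lines.

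Over the members as a set, 0 of 7 tested members passed the cutoff in *Le-Cre* against *FVB/N*, where 0.0643% of all tested genes did (10 of 15557, with 0.045% higher and 0.0193% lower). That count of 10 was not stable. It was 0 without *FVB/N* replicate 2 or without any 1 of the *Le-Cre* pools, 1 without *FVB/N* replicate 1 or 3, 49 by DESeq2 without a prior on the fold change and 131 without the filter on low counts. In *P0-3.9GFPCre* against *FVB/N* it was 0 of 8 members, with 0% of all genes, and in *Le-Cre* against *P0-3.9GFPCre* 0 of 7, also with 0% of all genes. DESeq2 without the prior called 11 and 35 genes in these last comparisons. At an unadjusted p under 0.05 edgeR gave 1 member (*Ahcyl2*), 3 members (*Ahcy*, *Mat2a* and *Mat2b*) and 1 member (*Ahcyl2*) in these comparisons, beside 7.94%, 6.81% and 7.88% of all tested genes. *Ahcy* is counted there although its *P0-3.9GFPCre* and *FVB/N* pools entered its choice. DESeq2 also gave 0 members past the cutoff in each comparison, with *Ahcy* left out of the comparisons with *Le-Cre*. Pools did not overlap for 2 tested members in each comparison, 1 higher and 1 lower, beside 13.5%, 12% and 14.1% of all genes. In *Le-Cre* against *FVB/N* these were *Mat2a* (higher, as for 6.46% of all genes) and *Ahcyl2* (lower, 7.03%). In *P0-3.9GFPCre* against *FVB/N* they were *Mat2a* (higher, 6.02%) and *Mat2b* (lower, 5.94%), and in *Le-Cre* against *P0-3.9GFPCre* *Mtrr* (higher, 6.74%) and *Ahcyl2* (lower, 7.37%). The median log2 fold change of the tested members was 0.00531, 0.0664 and -0.0605, beside medians of -0.00404, 2.39e-05 and -0.00176 over all genes.

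**Figure D4:**
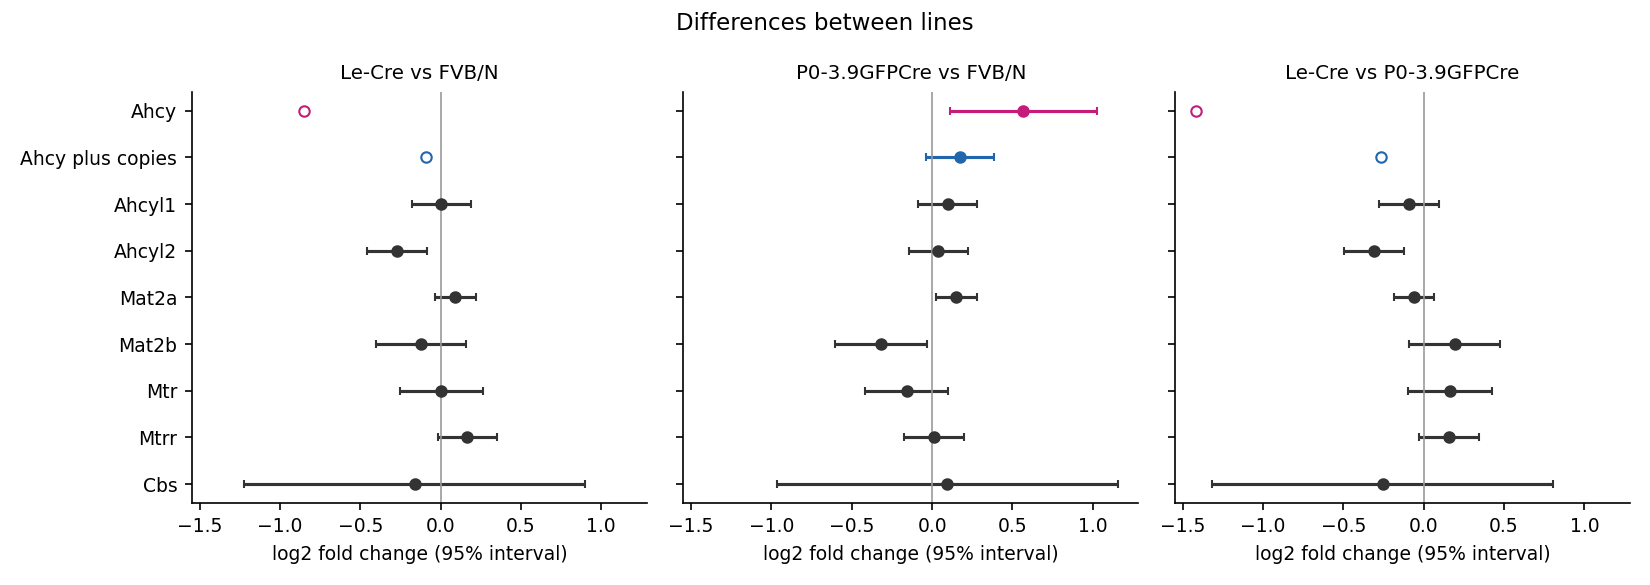
Log2 fold change (x axis) for each member and for the sum of *Ahcy* and its copies in the 3 comparisons of lines, with 95% intervals except for the open points, *Ahcy* and its sum in the comparisons with *Le-Cre*. *Ahcy* lies at -0.85, 0.57 and -1.42 and its sum with the copies at -0.09, 0.18 and -0.27, while the interval of *Cbs* is the widest drawn.

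By its pattern over the 9 pools *Ahcy* was most like *Ddx26b* (Pearson's r = 0.938), *Ndufa13* (0.936), *Suv420h2* (0.93), *Kremen1* (0.925) and *2700029M09Rik* (0.917), among 7650 genes with a mean of at least 10 CPM. The pools share lines, and with 9 points and 7650 genes such values are a description only. *Ndufa13*, a subunit of respiratory complex I, had means of 64.95 ± 2.903, 74.6 ± 1.85 and 55.7 ± 4.19 CPM (SD, n = 3) in the order *FVB/N*, *P0-3.9GFPCre*, *Le-Cre*. When genes down to 1 CPM were included, 2 of these 5 genes remained among the nearest 5.

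The genes around the cycle were followed in 6 further lists of 92 genes, of which 85 were tested. The 7 that were not tested were *Mat1a*, *Bhmt* and *Gnmt*, the liver enzymes of the cycle, with *Nnmt*, *Hnmt*, *Cdo1* and *Chac1*. Of the 85 genes 0 passed the cutoff in any comparison. At an unadjusted p under 0.05 edgeR gave 5, 6 and 4 of them in *Le-Cre* against *FVB/N*, *P0-3.9GFPCre* against *FVB/N* and *Le-Cre* against *P0-3.9GFPCre*, which was 5.88%, 7.06% and 4.71%, beside 7.94%, 6.81% and 7.88% of all genes. The pools did not overlap for 8, 7 and 14 genes (9.41%, 8.24% and 16.5%, beside 13.5%, 12% and 14.1% of all genes).

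Of the other methionine cycle genes 9 of 12 were tested, with a median log2 fold change of -0.0319 in *Le-Cre* against *FVB/N*. *Bhmt2*, which remethylates homocysteine with a methyl donor other than folate, had 9.635 ± 2.14 CPM in *Le-Cre* and 7.70 ± 2.45 CPM in *FVB/N* (SD, n = 3), with overlapping pools. *Mmachc*, which prepares B12 for *Mtr*, had a log2 fold change of 0.14 (adjusted p = 0.802, edgeR) and *Slc25a26*, the mitochondrial SAM carrier, of -0.10 (adjusted p = 0.952, edgeR). *Mmadhc*, which directs B12 to its enzymes, was the highest of this list at a mean of 47.25 TPM.

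Of the methyltransferases that use SAM 19 of 21 were tested, with a median of -0.0521 in *Le-Cre* against *FVB/N*. *Dnmt3a*, a de novo DNA methyltransferase, had 160.6 ± 6.14 CPM in *Le-Cre*, 171.2 ± 18.95 CPM in *P0-3.9GFPCre* and 213.4 ± 25.2 CPM in *FVB/N* (SD, n = 3). The *Le-Cre* pools were all below *FVB/N*, but the log2 fold change of -0.41 (SE 0.10, adjusted p = 0.266, edgeR) did not pass the test. *Dnmt3b*, the other de novo enzyme, was low at 2.12 ± 0.473 CPM for *FVB/N* against 2.65 ± 0.0179 CPM for *Le-Cre* (SD, n = 3).

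The 24 folate one-carbon genes were all tested, and their median was -0.0515 in *Le-Cre* against *FVB/N*. *Shmt1*, the cytosolic enzyme that moves a carbon from serine to folate, had 11.2 ± 0.109 CPM in *Le-Cre*, 9.22 ± 0.648 CPM in *P0-3.9GFPCre* and 7.86 ± 1.04 CPM in *FVB/N* (SD, n = 3). The 3 lines did not overlap on CPM, but on TPM *P0-3.9GFPCre* (5.74 to 6.63) and *Le-Cre* (6.13 to 7.76) did. Its adjusted p of 0.239 (edgeR, log2 fold change 0.51, SE 0.12, *Le-Cre* against *FVB/N*) was the smallest of the 85 genes in that comparison. *Mthfd2*, a mitochondrial folate enzyme, gave 0.47 (SE 0.17, adjusted p = 0.513, edgeR) with overlapping pools. *Gldc*, the glycine cleavage enzyme, reached 134.9 CPM in 1 *FVB/N* pool, while the other *FVB/N* pools had 58.06 and 63.9 CPM, within the 55.56 to 69.9 CPM of the 6 transgenic pools. *Folr1*, a folate receptor, was the highest of the list at 66.6 TPM.

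Of 15 polyamine and methionine salvage genes, all tested, the median was 0.0354 in *Le-Cre* against *FVB/N*. *Paox*, which oxidises acetylated polyamines, had means of 1.79 ± 0.667, 0.874 ± 0.227 and 0.7365 ± 0.392 CPM (SD, n = 3) in the order *FVB/N*, *P0-3.9GFPCre*, *Le-Cre*. The pools of both transgenic lines were all below *FVB/N*. The log2 fold change was -1.29 (SE 0.48, adjusted p = 0.547, edgeR) for *Le-Cre* and -1.03 (SE 0.48, adjusted p = 0.722, edgeR) for *P0-3.9GFPCre*, against the same *FVB/N* pools. *Sat1* (0.24 for *Le-Cre* against *FVB/N*) and *Smox* (0.20), which also break down polyamines, overlapped between lines on CPM. On TPM the *Smox* pools of *Le-Cre* (1.92 to 2.3) were above *FVB/N* (1.11 to 1.61) and *P0-3.9GFPCre* (1.4 to 1.8). *Oaz1*, the inhibitor of ornithine decarboxylase, was the highest at 187.1 TPM.

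The pathway below *Cbs* gave 10 tested genes of 12, with a median of 0.0141 in *Le-Cre* against *FVB/N*. *Gss*, glutathione synthetase, was high at 234.1 TPM, in contrast to *Cbs*, and had 342.1 ± 15.3 CPM in *Le-Cre* and 328.8 ± 17.7 CPM in *FVB/N* (SD, n = 3). *Slc7a11*, the cystine importer, reached 62.65 CPM in 1 *FVB/N* pool and lay between 18.8 and 31.1 CPM in the other 8 pools. *Ethe1*, a mitochondrial sulfur dioxygenase, and *Chac2*, which breaks down glutathione, had log2 fold changes of 0.33 and -0.23, with overlapping pools.

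Of the 8 genes of methionine transport and serine supply the median was -0.0176 in *Le-Cre* against *FVB/N*. The subunits of the large neutral amino acid transporter, which imports methionine, were abundant, with *Slc3a2* at 390.3 TPM and *Slc7a5* at 187.3 TPM. On CPM both were slightly lower in every *Le-Cre* pool than in *FVB/N*, by log2 fold changes of -0.07 (SE 0.06, adjusted p = 0.832, edgeR) and -0.07 (SE 0.06, adjusted p = 0.814, edgeR). On TPM the pools of these lines overlapped for *Slc3a2* (367.1 to 383 and 375.4 to 403.7) and for *Slc7a5* (172.7 to 192.3 and 178.3 to 194.8). *Phgdh*, the first enzyme of serine synthesis, gave 0.10 and *Slc38a2*, a neutral amino acid transporter, 0.07, and the pools of both overlapped on CPM. On TPM *Slc38a2* had 81.3 to 92.06 in *Le-Cre*, just above the 75.58 to 81.27 of *FVB/N*.

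**Figure D5:**
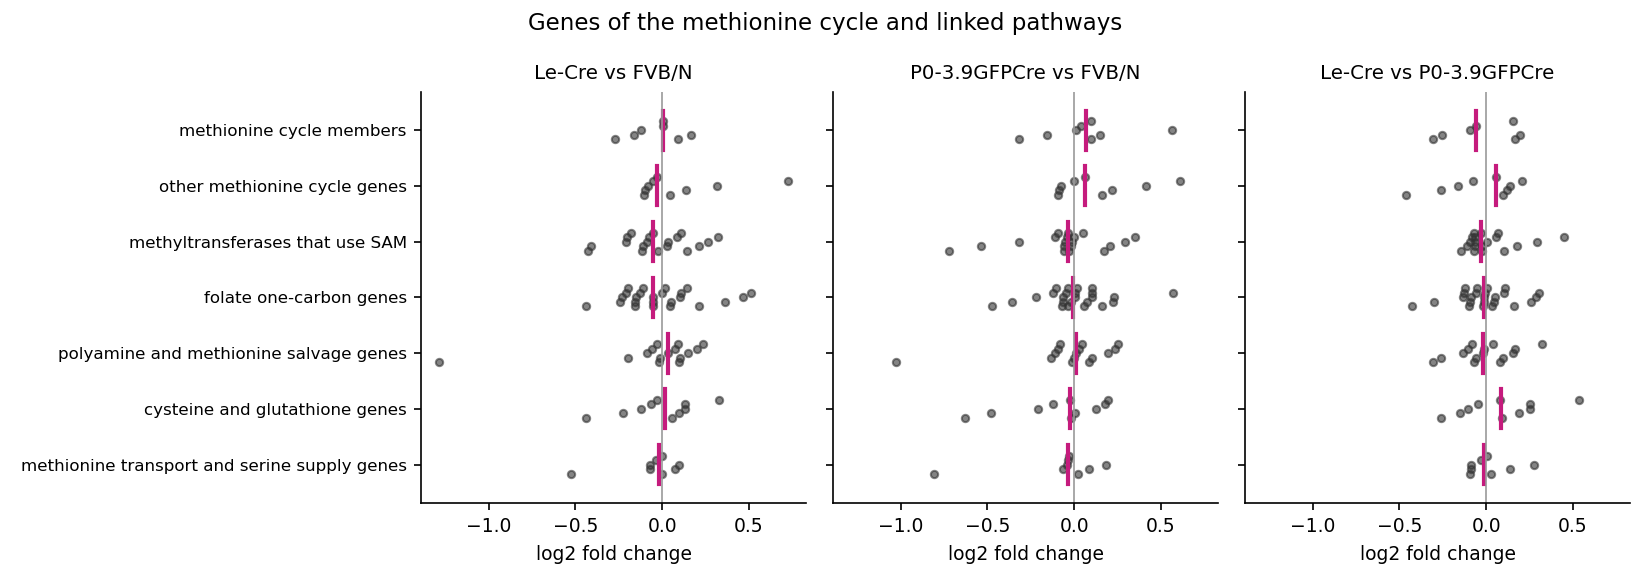
Log2 fold change (x axis) of every tested gene in the list of members and the 6 further lists (rows), in the 3 comparisons of lines, with a vertical bar at each median. *Ahcy* is left out of the comparisons with *Le-Cre*. The medians in *Le-Cre* against *FVB/N* lie between -0.0521 and 0.0354, and *Paox* is the point at -1.29.

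Lens markers led in all pools, with 10 lens fibre markers summing to between 209000 and 256300 CPM. Markers of neighbouring tissues were also counted. The 5 blood vessel markers summed to 63.1 to 111.3 CPM, the 8 of retina and retinal pigment epithelium to 24.1 to 40.5 CPM, those of red blood cells to 41.7 to 120 CPM and those of macrophages to at most 2.96 CPM. Of 5 cornea and skin markers *Krt12*, *Krt14* and *Trp63* were listed at 0 throughout, and the list summed to at most 0.317 CPM. Total expected counts ranged from 20670968 to 28098059 per pool. Exact permutation of the labels of 3 and 3 pools allows no two-sided p below 0.1 for any member taken alone.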

How the data were processed

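Polyadenylated RNA of 9 pools of newborn lenses was sequenced by the authors as single-end reads, trimmed with Trimmomatic 0.36, mapped to GRCm38 with GSNAP and quantified per gene with RSEM 1.3.0. The gene annotation is not given in the sources used here. The deposited tables give expected counts, RSEM's estimates of reads per gene, without normalization. The deposited tables also give TPM, which the authors' RSEM run scaled for transcript length and library size. RSEM's posterior SD was copied as deposited.

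Expected counts were rounded to whole numbers and fitted in R 4.3.3 with edgeR 4.0.16 (TMM, filterByExpr, glmQLFit and glmQLFTest on all 9 pools with a term for each line, Benjamini-Hochberg over 15557 genes). Genes with an adjusted p up to 0.05 and a difference of 1.5-fold or more were past the cutoff. The study names DESeq2 for this step, and DESeq2 1.42.0, limma 3.58.1 on log2(TPM + 1), other normalization, filters and covariates, and fits without 1 pool were run as alternatives. The edgeR step was tested on simulated data. Each SE was derived from the log2 fold change and its F statistic. Log2 CPM used a prior count of 2.

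Sequences, coordinates and 51-base matches were taken from GENCODE M21 on GRCm38, with alignments by Biopython 1.88. A gene was treated as a copy of a member when at least 100 of the member's 51-base sequences occurred in it on the same strand, a limit set after the data were seen. Total expected counts of 20670968 to 28098059 per pool set the precision.

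The members and lists were chosen with earlier results of these data known. Named genes were all members, the copies with counts, and, in each further list, any gene past the cutoff, the 3 tested genes of at least 1 CPM with the largest change in *Le-Cre* against *FVB/N* and the gene with the highest TPM, with the 5 genes most like *Ahcy*. A gene that this rule names is not reported here. Groups and replicate numbers came from the sample labels. The labels do not say that equal numbers share a litter or batch, and the residuals of same-numbered pools correlated by 0.03 on average (-0.1 to 0.12 over 9 pairs), so the pools were not paired.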

Additional observations from a re-analysis of the deposited data

Results flagged for a closer look

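*Ahcy* and its copy *Gm4737* differed in opposite directions between the transgenic lines. For *Ahcy* every *Le-Cre* pool was below the *FVB/N* mean and every *P0-3.9GFPCre* pool above it, with a log2 fold change of -1.42 for *Le-Cre* against *P0-3.9GFPCre*. For *Gm4737* every *Le-Cre* pool was above the *FVB/N* mean and every *P0-3.9GFPCre* pool below it, with a log2 fold change of 0.68 between these lines. That *FVB/N* mean of 23.6 CPM was lowered by replicate 2 at 16.1 CPM, and the *Le-Cre* and *FVB/N* pools of *Gm4737* overlapped. The other copy with counts, *Gm9826*, was lower in every *Le-Cre* pool than in any *P0-3.9GFPCre* pool, with a log2 fold change of -2.35 (SE 1.06). Its pools in both lines overlapped *FVB/N*. None of these differences between the transgenic lines was tested, because *Ahcy* was chosen for its *Le-Cre* values and the copies draw on the same reads. The division of shared reads and a difference in the RNA of any of these genes cannot be told apart in gene-level tables.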

How the results depend on the processing

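The counts of members and of pathway genes past the cutoff were 0 in all 3 comparisons and stayed 0 under every alternative run. *Ahcy* was left out of the members counted in the comparisons with *Le-Cre*, so these counts do not cover it there. The order of members by TPM had 4 of 8 members at the same rank when ordered by CPM, which does not correct for length. Of the 5 genes most like *Ahcy*, 2 were kept with genes down to 1 CPM. For *Ahcy*, the log2 fold change of *Le-Cre* against *FVB/N* was -0.44 under DESeq2 with a prior, -0.30 on log2(TPM + 1) and -0.09 for the sum with copies, and that against *P0-3.9GFPCre* was -0.765, -0.86 and -0.27. Leaving out 1 pool gave -1.02 to -0.68 and -1.58 to -1.25, and RSEM's posterior mean count, an alternative chosen after seeing the data, -0.83 and -1.39.

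Of the members' fold changes under the alternatives, 435 stayed on the same side, 6 (the *Ahcy* values under the first 3 settings above) kept their sign but moved, and 15 changed sign, none with an adjusted p under 0.05. On log2(TPM + 1), *P0-3.9GFPCre* against *FVB/N* gave -0.35 for *Ahcyl2* and -0.0557 for *Cbs*. Without 1 pool, *Le-Cre* against *FVB/N* ranged from -0.0628 to 0.0743 for *Ahcyl1* (negative without *FVB/N* replicate 3 at -0.0628 or *Le-Cre* replicate 2 at -0.0535), -0.213 to 0.0219 for *Mat2b* (*FVB/N* replicate 3), -0.0956 to 0.1003 for *Mtr* (-0.0622 without *FVB/N* replicate 3, -0.0956 without *Le-Cre* replicate 3) and -0.61 to 0.217 for *Cbs* (*Le-Cre* replicate 3). *P0-3.9GFPCre* against *FVB/N* ranged from -0.038 to 0.082 for *Ahcyl2* (-0.0043 without *FVB/N* replicate 1), -0.0543 to 0.0721 for *Mtrr* (-0.0288 without *P0-3.9GFPCre* replicate 3) and -0.1035 to 0.293 for *Cbs* (-0.0119 without *FVB/N* replicate 2). *Cbs* in *Le-Cre* against *P0-3.9GFPCre* ranged from -0.704 to 0.123, the latter without *Le-Cre* replicate 3. The cause was not tested.

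With the replicate block, the log2 fold change of *Ahcy* was -0.84, 0.59 and -1.44 in the 3 comparisons and that of *Ahcyl2* -0.27, 0.0368 and -0.31. The block changed no call of a tested member or pathway gene, with *Ahcy* not tested in the comparisons with *Le-Cre*. Over all genes it gave 2 genes past the cutoff in *Le-Cre* against *FVB/N*, beside 10 without it. The pools share only a number. *Cbs* had 7 to 37 counts with a spread between pools beyond counting error, and the posterior SD of *Ahcy* was up to 26.1% of its count.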
